A study of Drosophila melanogaster with 13 samples.

Results

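ChIP-seq peaks of the replication proteins SUUR and Cdc45 were compared in egg chambers of Drosophila melanogaster at stage 10 of oogenesis. The members were all peaks with a summit pileup of 5 or more, that is, at least 5 overlapping tag fragments at the summit. They came from the list whose file name and header carry SUUR and from the list whose file name and header carry Cdc45. The titles and antibody labels of these 2 samples give the other antibody: the list named SUUR in its file belongs to the sample titled Cdc45, and the list named Cdc45 in its file belongs to the sample titled SUUR. The lists are therefore called the SUUR-file list and the Cdc45-file list throughout, and which antibody made which list was not settled by these data. In all, 25260 peaks were members, 24764 in the SUUR-file list and 496 in the Cdc45-file list, of 83082 peaks in the 9 lists of the series. The stage 10 IgG list, with 5551 peaks, served as the background.

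All 3 libraries came from OrR, a wild-type strain, with no transgene or mutation named in the labels and no treatment other than fixation. Females were fattened on wet yeast. For each ChIP 600 egg chambers were isolated after fixation of the ovaries in 2% formaldehyde, and they were immunoprecipitated with antibodies described as made in-house or with GP IgG. Whole egg chambers hold germline nurse cells and the oocyte as well as somatic follicle cells, so each list is a mixture of these cells. Each antibody had 1 library, with no replicate, so no test between antibodies was possible. Intervals are Wilson 95% intervals over peaks, and they cover counting error only, since PCR reads without molecular identifiers are not independent molecules. Peak lists hold no expression values, so the labelled tissue could not be checked against marker genes.

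SUUR is a chromatin protein of late-replicating sequence and heterochromatin, known for its part in the underreplication of such sequence in polytene and other polyploid cells, where it slows replication forks. Cdc45 is a component of the replicative helicase and travels with the fork. In follicle cells around stage 10 genomic replication has ended, while a few loci with chorion (eggshell) and related genes, the Drosophila amplicons in follicle cells (DAFCs), go on firing origins. This raises their copy number in a gradient around the origin. Forks at the amplicons, and heterochromatin and other late-replicating sequence, are thus the places for which these proteins are known in this tissue.

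The libraries differed widely in depth. After removal of duplicates, 8265341 tags remained for the SUUR-file list, 353742 for the Cdc45-file list and 3891175 for IgG, per the file headers, so the SUUR-file library was 23.4 times deeper than the Cdc45-file library. The lowest pileup in the SUUR-file list was 9 and that in the IgG list was 7, so all peaks of both lists passed the limit of 5 (100 percent). In the Cdc45-file list 496 of 5147 peaks passed (9.64 percent). The limit removed peaks from the Cdc45-file list alone. Just outside it were 447 Cdc45-file peaks with a pileup of 4, and just inside it were 187 with a pileup of 5. Per 1000000 tags a pileup of 5 stands for 0.605 in the SUUR-file library and 14.1 in the Cdc45-file library. Counts of peaks in the 2 lists are therefore not measures of how much of the genome each protein occupied, and the part of depth in the results was not tested. All 3 lists were called against 1 input library of 19223113 tags, so overlaps among them can arise from that shared input.

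Few SUUR-file peaks met a Cdc45-file peak, while the much shorter Cdc45-file list met the SUUR-file list more often. By an overlap of 1 bp or more, 191 of 24764 SUUR-file peaks (0.771 percent; interval 0.670 to 0.888) and 180 of 496 Cdc45-file peaks (36.3 percent; interval 32.2 to 40.6) were shared. They formed 197 overlapping pairs. The IgG list set the background for both numbers. An IgG peak lay under 13.2 percent of SUUR-file peaks and under 37.7 percent of Cdc45-file peaks, while 60.4 percent of IgG peaks overlapped a SUUR-file peak and 3.19 percent a Cdc45-file peak. The share of the Cdc45-file list that met a SUUR-file peak thus lay below the share of the IgG list that did.

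Most of the overlap lay at places that IgG also recovered. An IgG peak overlapped 123 of 191 shared SUUR-file peaks, or 64.4% (interval 57.4 to 70.8), against 12.8% of the 24573 peaks found in the SUUR-file list alone. Among Cdc45-file peaks, 114 of the 180 shared (63.3%) and 73 of the 316 unshared (23.1%) overlapped an IgG peak. Outside IgG peaks the overlap shrank to 68 SUUR-file and 66 Cdc45-file peaks. These were 0.316% of the 21503 SUUR-file peaks and 21.4% of the 309 Cdc45-file peaks that overlapped no IgG peak.

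Of the Cdc45-file peaks on the 5 large chromosome arms (X and both arms of chromosomes 2 and 3), 72 of 309 met a SUUR-file peak, or 23.3% (interval 18.9 to 28.3). Of the 249 IgG peaks on the same arms, 141 did, or 56.6% (interval 50.4 to 62.6). The Cdc45-file list thus overlapped the SUUR-file list less often than IgG did on the arms. Without the amplicon windows described below, left out after seeing the data, the shares were 24.9% of 173 Cdc45-file peaks and 57.8% of 230 IgG peaks. The intervals treat neighbouring peaks as independent and are no test between the libraries, which had no replicates. The part of depth and of the pileup limit in this difference was not tested. On unplaced sequence (U and Uextra, contigs with no place on a chromosome and rich in repeats) the shares were close, 65.2% of 155 Cdc45-file peaks and 60.9% of 5197 IgG peaks.

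The kind of sequence separated the classes. Peaks found in the SUUR-file list alone were spread over unplaced sequence, arms and heterochromatin: 57.4% of them lay on U and Uextra, 27.9% on those large (major) arms and 14.8% (3630 of 24573; interval 14.3 to 15.2) on chromosome 4 and the Het scaffolds. Chromosome 4 is small and largely heterochromatic, and the Het scaffolds are assembled heterochromatin of the other chromosomes. Few shared peaks lay in that heterochromatin, 7 of 191 SUUR-file peaks (3.67%; interval 1.79 to 7.37). A shared peak needs a Cdc45-file peak, and 18 of all 496 Cdc45-file peaks (3.63%) lay there. Of these 18, 7 were shared (38.9%; interval 20.3 to 61.4), close to the 36.3% of the whole Cdc45-file list. The low count of shared peaks there is thus near the share of the Cdc45-file list itself. Peaks found in the Cdc45-file list alone were rare there too, 11 of 316 (3.48%; interval 1.96 to 6.13), while 237 of the 316 lay on the major arms. IgG peaks were of another kind: 93.6% lay on unplaced sequence, 4.49% on the arms and 1.42% on chromosome 4 and Het scaffolds. Among peaks that overlapped no IgG peak, the heterochromatic share was 16.8% in the SUUR-file class, 5.88% in shared SUUR-file peaks (4 of 68; interval 2.31 to 14.2), 10.6% in shared Cdc45-file peaks (7 of 66; interval 5.23 to 20.3) and 2.88% in the Cdc45-file class. The interval of the shared Cdc45-file peaks holds the value of the SUUR-file class.

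Density along each sequence showed the same contrast. SUUR-file peaks lay at 58.2 per Mb on the major arms, 205.8 per Mb on chromosome 4 (278 peaks) and 362.7 per Mb on the Het scaffolds (3359 peaks), with 28.9 per Mb on 3R as the lowest arm and 78.5 on 3L as the highest. Here the span of a sequence was taken from its last peak. Cdc45-file peaks lay at 2.60 per Mb on the arms and 1.30 per Mb on the Het scaffolds, where the whole list had 12 peaks. On chromosome 4 the Cdc45-file list had 6 peaks, or 4.44 per Mb, 3 of them in IgG. So the SUUR-file density was higher on the Het scaffolds than on the arms, and the Cdc45-file density was not. With the amplicon windows left out, the Cdc45-file density on the arms was 1.48 per Mb, close to that on the Het scaffolds, and the SUUR-file density was 58.1. IgG peaks lay at 2.09 per Mb on the arms and 7.67 per Mb on the Het scaffolds.

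The ends of the arms that adjoin the centromere, where euchromatin passes into heterochromatin, held a large part of the SUUR-file peaks. In the last 2 Mb of 2L and 3L, the first 2 Mb of 3R and the last 2 Mb of X there were 292.2 SUUR-file peaks per Mb, against 36.4 over the rest of these 4 arms. The contrast was widest on 3L, with 605 against 31.8 per Mb, and narrowest on 3R, with 59.5 against 26.5. Cdc45-file peaks lay at 3.13 against 2.92 per Mb over the 4 arms, and IgG peaks at 4.38 against 2.18. The amplicons raised the Cdc45-file value for the rest. Without the 6 amplicon windows, left out after seeing the data, the rest held 1.43 Cdc45-file and 2.01 IgG peaks per Mb, so both lists were then also denser at the ends. By arm the Cdc45-file list differed, from 3 against 0.849 per Mb on 3R to 2 against 4.46 on X, with 25 peaks in the 4 ends together. The DAFC-7F window held 22 of the 95 Cdc45-file peaks on X. SUUR-file peaks also came in runs: the median gap between neighbours on the arms was 0.288 kb, and 73.6% of gaps were within 1 kb. For the Cdc45-file list the median gap was 15.3 kb. Outside 2R and 2RHet, the windows of 100 kb with most SUUR-file peaks were 3RHet 1.8 to 1.9 Mb with 130 peaks, 3L 23.3 to 23.4 Mb with 122 and 2LHet 0.1 to 0.2 Mb with 117. None of these peaks overlapped a Cdc45-file member, and the median pileup was 12 in each of the 3 windows.

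By arm, the Cdc45-file list was uneven in another way. It had 133 peaks on 3L and 95 on X, but 31 on 2L, 22 on 2R and 28 on 3R. Shared peaks followed the same arms, with 42 shared SUUR-file peaks on 3L and 29 on X, and 2 on 2L, 3 on 2R and 5 on 3R. Both 3L and X carry one of the 2 main chorion gene clusters. On 3L the window of that cluster held 106 of the 133 Cdc45-file peaks and 33 of the 42 shared SUUR-file peaks. On X the window held 22 of the 95 and 7 of the 29, so most of these peaks on X lay outside it.

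Shared SUUR-file peaks had a higher median pileup than unshared ones. SUUR-file peaks outside IgG had a median pileup of 13 (range 9 to 54) when found in that list alone and 21.5 (range 9 to 41) when shared. Where an IgG peak overlapped, the medians were 14 and 51. The classes overlapped in range, but the shared class lay higher at its median on both sides of the IgG split. Outside IgG and the amplicon windows the medians were 13 for unshared and 17.5 for shared SUUR-file peaks. For Cdc45-file peaks outside IgG the median pileup was 5 (range 5 to 19) in that list alone and 6 (range 5 to 52) when shared, and with IgG it was 12 and 8. The pileup of a peak cannot pass a ceiling set by fragment length, because the caller kept 1 tag per position and strand: 72 in the SUUR-file list and 98 in the Cdc45-file list. Values of the lists were not compared with each other for this reason.

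Most widths were short, and the narrowest equalled the fragment length used by the caller, 36 bp in the SUUR-file list and 49 bp in the Cdc45-file list. Cdc45-file peaks at DAFC-66D were wider, with a median of 169.5 bp. Median width was 74 bp for peaks of the SUUR-file list alone and 114 bp for its shared peaks, and 68 bp for peaks of the Cdc45-file list alone and 97 bp for its shared peaks. Without the peaks that overlapped IgG, the SUUR-file medians were 71 and 80 bp and the Cdc45-file medians were 65 and 95 bp. With the amplicon windows also left out, they were 71 and 111 bp in the SUUR-file list and 60 and 81 bp in the Cdc45-file list. The ranges overlapped almost wholly. The widest peaks were 4689 bp in the SUUR-file list and 2526 bp in the Cdc45-file list, and both were shared.

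Shared peaks also lay where the input itself was high. From pileup and fold of each peak the local input of the caller was recovered and divided by the lowest value in that list, which the caller takes from the genome average, so that a ratio of 1 means no local excess of input. The ratio was 2 or more in 107 of 191 shared SUUR-file peaks (56.0%; interval 48.9 to 62.9) against 2.91% of the peaks of that list alone. For the Cdc45-file list it was 2 or more in 52.2% of shared peaks and 38.6% of unshared peaks. Median fold over input was 5.03 in all shared SUUR-file peaks and 3.70 in the unshared ones. Outside IgG it was 2.87 in shared and 3.70 in unshared peaks, but without the amplicons that order turned, with 4.27 in shared and 3.70 in unshared peaks. An excess of input can be extra copies of a sequence, such as an amplicon, or a repeat that the assembly holds fewer times than the genome; these cannot be told apart from the lists alone.

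**Figure D1:**
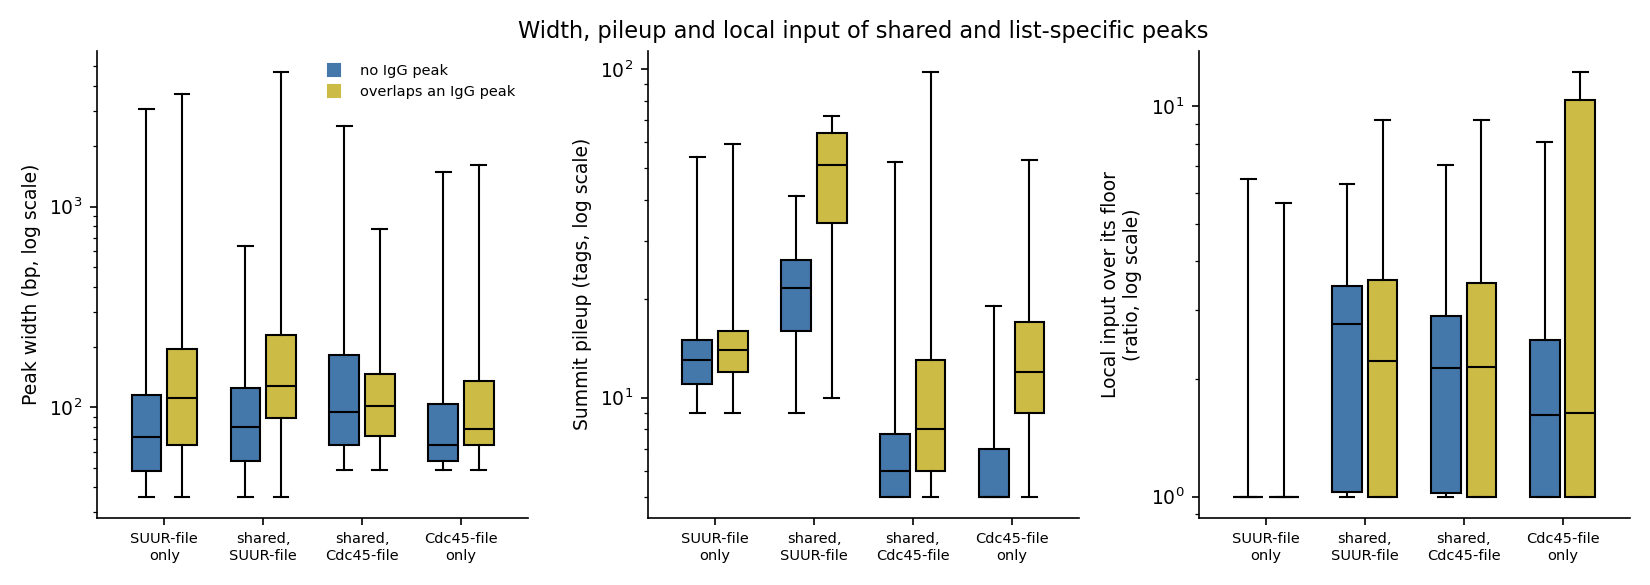
Peak width (bp), summit pileup (tags) and local input over its floor (ratio), all on log axes, for the 4 classes of peaks, split by overlap with an IgG peak. Boxes give the quartiles with the median as a line and whiskers run to the lowest and highest peak; shared SUUR-file peaks have the higher pileup (median 21.5 outside IgG and 51 within) and, with the Cdc45-file classes, the raised local input.

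Overlap rose with pileup in both lists, and so did overlap with IgG. In the Cdc45-file list 28.9% of the 187 peaks with a pileup of 5 were shared and 15.5% overlapped IgG. Of its 37 peaks with a pileup of 20 or more, 64.9% were shared and 91.9% overlapped IgG. Between these ends the share did not climb evenly, being 44.6% at a pileup of 6, 37.6% at 7 to 9 and 32.7% at 10 to 19. In the SUUR-file list 0.105% of peaks with a pileup of 9 to 11 were shared, 3.81% at 20 to 35 and 53.7% (94 of 175) at 36 or more. IgG overlapped 74.9% of these last 175 peaks, against 7.16% of those with a pileup of 9 to 11. The heterochromatic share went the other way, from 18.7% at a pileup of 9 to 11 down to 2.29% at 36 or more. All 30 SUUR-file peaks within 10% of the ceiling of 72 were shared, overlapped IgG and lay on unplaced sequence, as did both Cdc45-file peaks within 10% of 98.

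**Figure D2:**
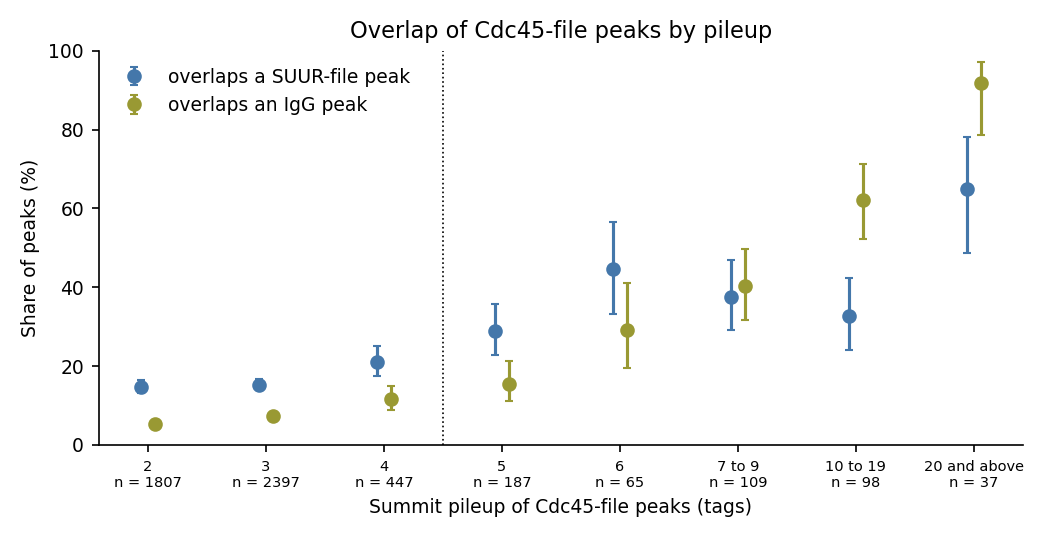
Share of Cdc45-file peaks (%, y axis) that overlap a SUUR-file peak and that overlap an IgG peak, by summit pileup (tags, x axis), with Wilson 95% intervals and the number of peaks under each step; the dotted line marks the limit of 5. Both shares are higher at high pileup, and at 20 or more the IgG share (91.9%) lies above the SUUR-file share (64.9%).

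Paired peaks were chosen by their overlap, so their summits had to lie near each other, and the distances are given as a description. Summits of the 197 pairs lay a median of 28 bp apart (range 0 to 1766), 122 of them (61.9%) within 50 bp, and the median overlap was 74 bp. In the 67 pairs outside IgG the median distance was 63 bp and 46.3% were within 50 bp, against 12.5 bp and 70% in the 130 pairs in IgG. Spearman's rho between the pileups of paired peaks was 0.409 (n = 197 pairs, given as a description, since pairs share an input library and some share a peak). Between their local input ratios it was 0.923, which the shared input fixes in large part.

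The chorion amplicons held a large part of the shared peaks that IgG did not mark. Windows for 6 amplicons were taken from general knowledge, rounded to 0.1 Mb of dm3, and are approximate. Of the 56 shared SUUR-file peaks on placed sequence and outside IgG, 36 (64.3%) lay in the amplicon windows, 29 at DAFC-66D and 7 at DAFC-7F. Of the 53 Cdc45-file peaks of this kind, 25 (47.2%) did, 18 at DAFC-66D and 7 at DAFC-7F. The amplicons also took 44.0% of all Cdc45-file peaks on the arms (136 of 309), against 1.70% of SUUR-file peaks on the arms (118 of 6926). They held many unshared Cdc45-file peaks too, 98 of the 243 outside IgG. In all, 22 of 106 Cdc45-file peaks at DAFC-66D and 7 of 22 at DAFC-7F were shared. On the arms outside the windows 43 of 173 (24.9%) were. For SUUR-file peaks the counts were 33 of 55 and 7 of 27, against 41 of 6808 (0.602%). Local input was 2 or more times its floor at 34 of the 36 shared SUUR-file peaks in the windows and outside IgG, against 9 of the 32 shared peaks outside IgG elsewhere.

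DAFC-66D, the chorion cluster on chromosome 3 (3L 8.6 to 8.9 Mb), was the densest place in the Cdc45-file list. It held 106 Cdc45-file peaks with pileups of 5 to 19 (median 7), 55 SUUR-file peaks with pileups of 10 to 38 (median 22) and 14 IgG peaks. Of these, 22 Cdc45-file peaks and 33 SUUR-file peaks were shared. Cdc45-file pileup was highest where input was highest. In steps of 10 kb its median rose from 5 at 8.69 to 8.70 Mb, with a median input ratio of 1.64, to 13.5 at 8.72 to 8.73 Mb, with an input ratio of 6.68, and fell to 5 at 8.76 to 8.77 Mb, with an input ratio of 1.73. The authors' fold over input rose from a median of 4.85 to 7.62, but the caller adds 1 to both pileup and input. The flank medians of 5 sit at the pileup limit, which kept 106 of the 153 Cdc45-file peaks listed in this window. How far pileup rose relative to input therefore cannot be read from the members. IgG peaks sat in the same middle, 9 of the 14 at 8.72 to 8.73 Mb, with a median fold of 2.37 there.

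The SUUR-file list also had peaks in that middle, 7 at 8.72 to 8.73 Mb. Their median pileup of 31, at a median input ratio of 5.47, was the highest of the 10 kb steps. A part of the middle held none. From 8716925 to 8726151 on 3L, a stretch of 9.23 kb around the Cdc45-file peak of highest local input (8721775 to 8722295, pileup 13, input ratio 8.44), there was no SUUR-file peak. The same stretch held 11 Cdc45-file peaks with pileups of 8 to 19 and 8 IgG peaks with pileups of 24 to 33. At the edges the SUUR-file peaks reached 38 on the left, the highest value at the locus, and 35 on the right, and farther out they fell to a median of 18 at 8.74 to 8.75 Mb. At an input ratio of 8.44 the p limit of the caller asks for a SUUR-file pileup of 37, against 9 at the floor, so a lower pileup in the middle would not be listed. This stretch was singled out after its values were seen.

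Apart from these, 16 SUUR-file peaks clustered at 8.78 to 8.79 Mb with pileups of 10 to 18 and a median input ratio of 1.06. None was shared, and no Cdc45-file member lay there.

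DAFC-7F, the chorion cluster on X (8.3 to 8.6 Mb), was the other shared place, with 27 SUUR-file peaks (pileup 11 to 25, median 16), 22 Cdc45-file peaks (pileup 5 to 10, median 6) and 1 IgG peak. In each list 7 peaks were shared. Here too the SUUR-file list had a stretch without peaks around the Cdc45-file peak of highest input (X 8376733 to 8376788, pileup 6, input ratio 5.92). It ran for 22.8 kb and held 2 Cdc45-file peaks and the 1 IgG peak, and a SUUR-file pileup of 28 would have been needed at that input. Most SUUR-file peaks lay on 1 side of it: 26 of the 27 lay between 8.38 and 8.41 Mb.

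The 4 smaller amplicons had no shared peak. DAFC-34B held 15 SUUR-file and 5 Cdc45-file peaks, DAFC-22B 16 and 2, DAFC-30B 3 and 1, and DAFC-62D 2 and 0, with 4 IgG peaks in all, all at DAFC-34B. At these depths few peaks of either list were called there, and a smaller overlap was not detectable.

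**Figure D3:**
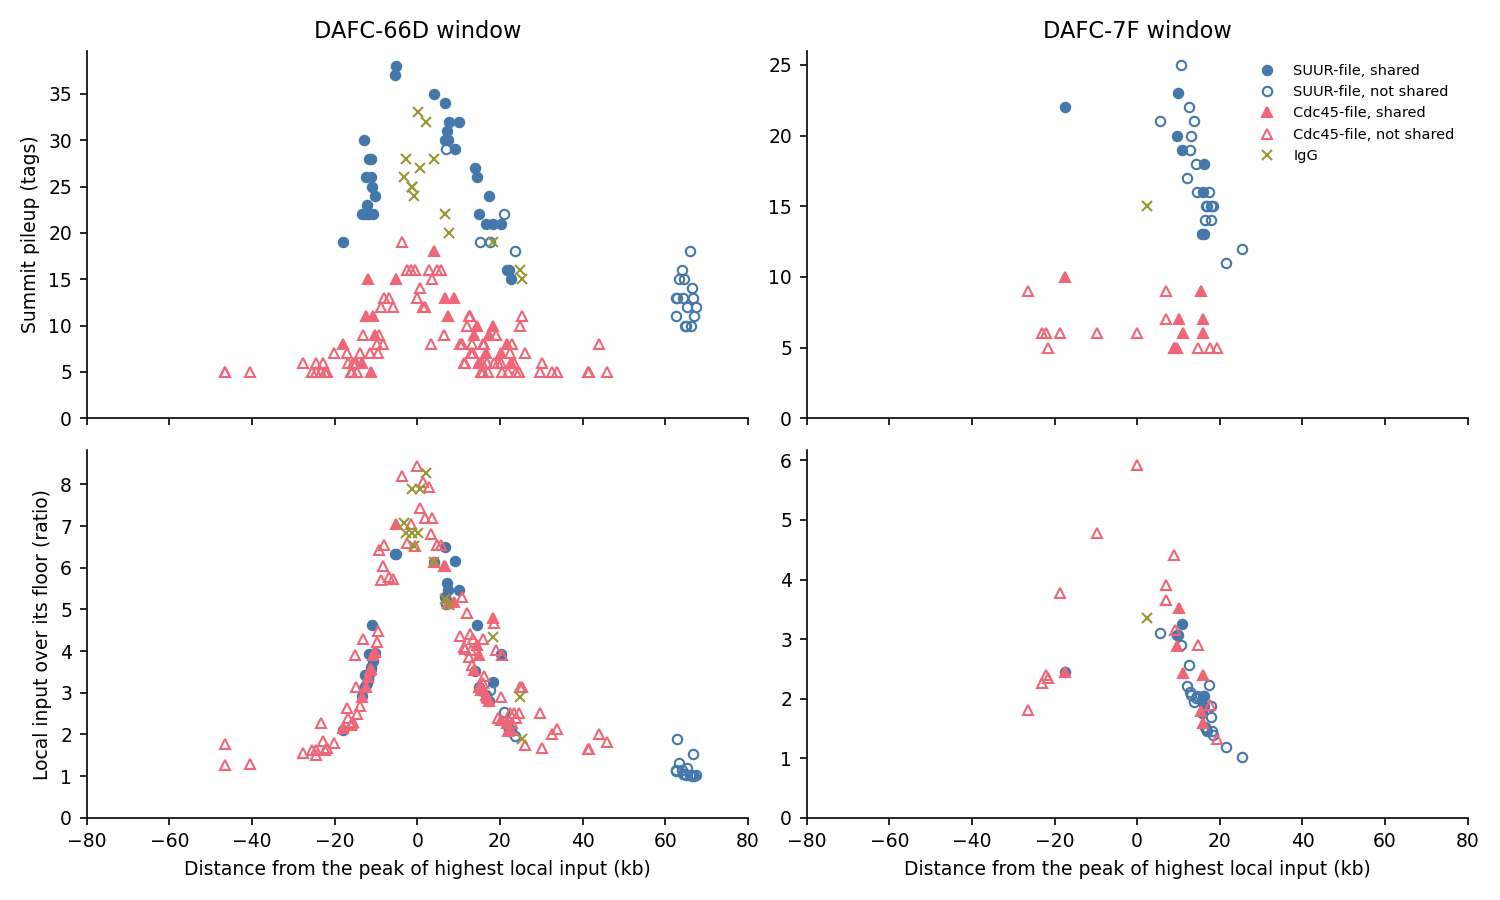
Summit pileup (tags, upper row) and local input over its floor (ratio, lower row) of each peak against the distance (kb) from the Cdc45-file peak of highest local input, at DAFC-66D (left) and DAFC-7F (right); filled symbols are shared peaks, crosses are IgG peaks, and 1 Cdc45-file peak at DAFC-7F lies beyond the 80 kb shown. At DAFC-66D the nearest SUUR-file peaks lie 5.11 kb to the left and 4.12 kb to the right of that Cdc45-file peak, with Cdc45-file and IgG peaks between them.

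Single peaks show what each class holds. On placed sequence other than 2R and 2RHet, shared pairs outside IgG were ranked by the sum of their pileup ranks in the lists, and the first 5 were all at DAFC-66D. The first was a SUUR-file peak of 64 bp at 3L 8716861 to 8716924 with a pileup of 38, a fold of 2.31 and an input ratio of 6.32. It fell within a Cdc45-file peak of 1254 bp (8716245 to 8717498) with a pileup of 15 and a fold of 7.88, and that broad peak also held the second SUUR-file peak of the ranking, with a pileup of 37. The third pair, at 3L 8710218 to 8710349, had a pileup of 28 in the SUUR-file list and 15 in the Cdc45-file list. The fourth and the fifth, with SUUR-file pileups of 32 and 29, both lay in the 2526 bp Cdc45-file peak at 8729772 to 8732297. At this locus, then, narrow SUUR-file peaks lay inside broad Cdc45-file peaks.

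On the same sequence (placed, other than 2R and 2RHet) and outside IgG, the highest peaks of the SUUR-file list alone lay elsewhere. They were a 41 bp peak at 2L 20204107 to 20204147 with a pileup of 46 and an input ratio of 5.81, a pair on chromosome 4 at 1283481 to 1284052 and 1299134 to 1300224, both with a pileup of 43, and a pair on X near 13.9 Mb with pileups of 43 and 42. The 5 had local input ratios of 3.08 to 5.81. Within the same limits, the highest of the Cdc45-file list alone was a 63 bp peak at X 19291853 to 19291915. It had a pileup of 19, a fold of 17.3 and an input ratio of 1.09. The next 3 were broad peaks in the middle of DAFC-66D with a pileup of 16 each, and the fifth was a 63 bp peak at 3R 19939955 to 19940017 with a pileup of 15. Among these 5, the 3 at the amplicon were broad and on raised input, and the other 2 were narrow and on input near the floor. The highest Cdc45-file peaks of all were of another kind: of the 11 with a pileup of 52 or more, 10 were shared, 10 overlapped IgG and 8 lay on unplaced sequence.

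Beyond the amplicons the shared peaks outside IgG were few and scattered. On the arms there were 16 in the SUUR-file list, with pileups of 11 to 41 (median 15), and 21 in the Cdc45-file list, with pileups of 5 to 47 (median 5). A window on X at 13.9 to 14 Mb held 30 SUUR-file peaks with a median pileup of 39, 12 Cdc45-file peaks, all 12 shared, and 26 IgG peaks, with median input ratios of 3.42, 2.64 and 2.89. IgG overlapped 14 of these SUUR-file peaks and 7 of these Cdc45-file peaks. This window resembled an amplicon in its raised input, but the IgG library recovered it nearly as densely as the SUUR-file library did. The windows at 3L 23.5 to 23.6 Mb and 22.8 to 22.9 Mb, near the centromere, held 2 shared SUUR-file peaks each outside IgG, the first among 116 SUUR-file peaks. At 22.8 to 22.9 Mb both fell in 1 Cdc45-file peak of 552 bp (22804469 to 22805020) with a pileup of 47 and a fold of 41.9 on input at its floor, a pileup above that of every Cdc45-file peak at DAFC-66D.

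The lists of stages 12-13, from other egg chambers and another input, showed which stage 10 peaks recurred; their file names and titles carry the same conflict. All 36 shared SUUR-file peaks and all 25 shared Cdc45-file peaks of the amplicons that lay outside IgG overlapped both the SUUR-file and the Cdc45-file list of the later stages, and 0 of them the later IgG list. These SUUR-file and Cdc45-file peaks lay at DAFC-66D (29 and 18) and DAFC-7F (7 and 7) alone. Such close neighbours are not independent, so no interval is given for them. Unshared Cdc45-file peaks in the amplicons mostly recurred too, 81 of 98 in the later SUUR-file list and 90 of 98 in the later Cdc45-file list. Elsewhere on the arms unshared Cdc45-file peaks hardly recurred: 1 of 114 met the later SUUR-file list, 4 of 114 the later Cdc45-file list and 14 of 114 the later IgG list. Over all 496 Cdc45-file members, in IgG or not, the shares were 56.9%, 65.3% and 42.7% in the same order. At DAFC-66D the later SUUR-file list covered 71.3 kb with peaks of up to 14.2 kb, the later Cdc45-file list 130.5 kb with peaks of up to 16.7 kb, and the later IgG list 0.584 kb. The part of this coverage in the overlaps was not tested.

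Unshared SUUR-file peaks recurred mainly in the later list of the same file name, at a like share on each kind of sequence other than the amplicons. Over all 21435 such peaks outside IgG, 32.0% overlapped the later SUUR-file list, 11.6% the later Cdc45-file list and 6.21% the later IgG list. Over all 24764 SUUR-file members the shares were 36.3%, 17.95% and 10.7%, so this order was not particular to the unshared peaks. The part of the size and depth of the later lists in it was not tested. On chromosome 4 and the Het scaffolds, 30.4% of 3595 peaks outside IgG overlapped the later SUUR-file list (interval 28.9 to 31.9), 3.34% the later Cdc45-file list and 1.70% the later IgG list. On the arms outside the amplicons the shares were 29.2%, 11.1% and 5.84% of 6699 peaks, and on unplaced sequence they were 34.1%, 14.4% and 7.92% of 11064 peaks. The share that met the later Cdc45-file list was thus lowest on chromosome 4 and the Het scaffolds. Of 77 unshared SUUR-file peaks in the amplicons, 54.5% overlapped the later SUUR-file list and 41.6% the later Cdc45-file list. Shared peaks of the arms outside the amplicons were too few for an order, at 8, 8 and 5 of 16.

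**Figure D4:**
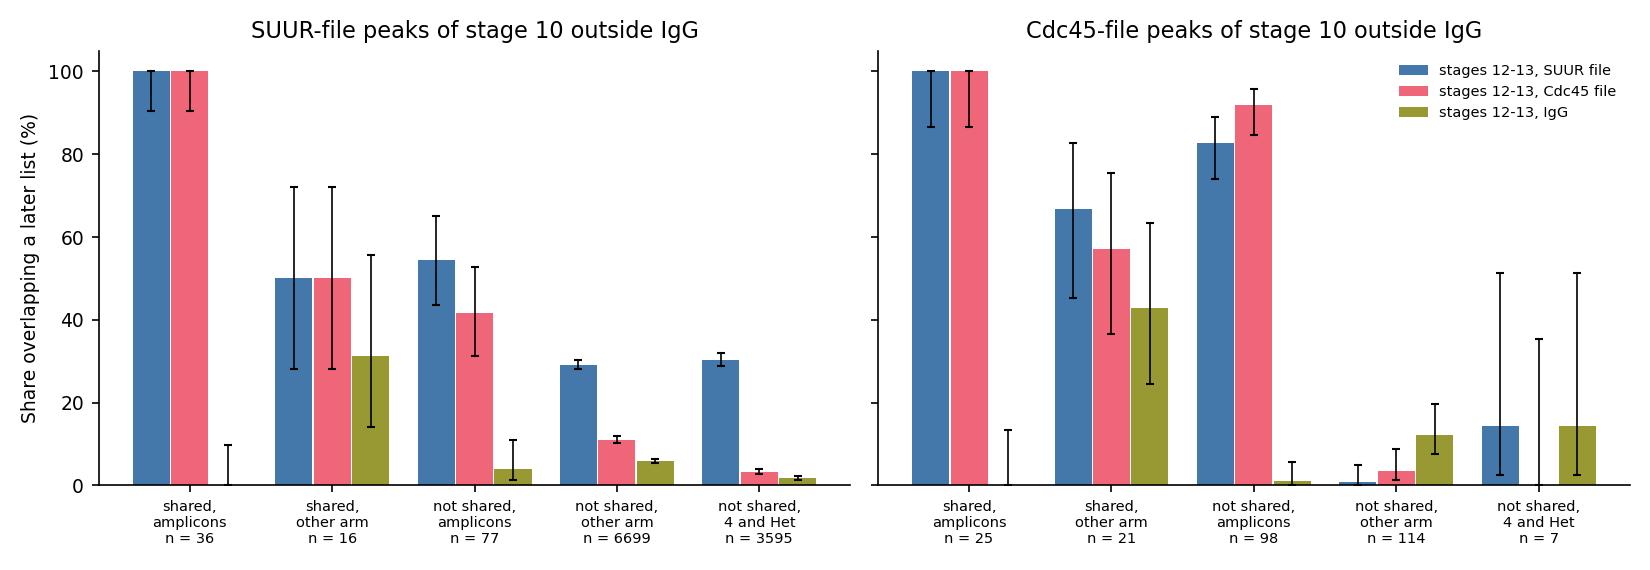
Share of stage 10 peaks outside IgG (%, y axis) that overlap the SUUR-file, Cdc45-file or IgG list of stages 12-13, by class and place, for SUUR-file peaks (left) and Cdc45-file peaks (right), with Wilson 95% intervals and the number of peaks under each group. The intervals of the amplicon groups treat neighbouring peaks of a few loci as independent and are too narrow. Shared amplicon peaks recur in both later ChIP lists and unshared SUUR-file peaks mainly in the later SUUR-file list (29.2% on the other arm sequence, 30.4% on chromosome 4 and Het scaffolds), while unshared Cdc45-file peaks of the other arm sequence stay at or under 12.3% in all 3.

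Salivary gland lists of gamma-H2Av, the phosphorylated histone variant that marks DNA damage, overlapped the unshared SUUR-file peaks, and so did the gland IgG list. That IgG list came from OrR glands, and the series held none from SuUR mutant glands. Of unshared SUUR-file peaks outside the stage 10 IgG list, 20.2% overlapped gamma-H2Av of OrR glands, 21.3% that of SuUR mutant glands and 19.4% the gland IgG list. These shares were nearer each other over all sequence than on each kind of sequence. On the arms they were 9.39%, 5.98% and 13.7%, and on unplaced sequence 26.5%, 30.6% and 21.1%. On chromosome 4 and the Het scaffolds they were 21.1%, 21.4% and 25.15% of 3595 peaks. Gland IgG thus met fewer of the peaks on unplaced sequence than gamma-H2Av did, and more on the arms, chromosome 4 and the Het scaffolds. Of the 243 unshared Cdc45-file peaks outside IgG, 3 met gamma-H2Av of OrR glands, 6 that of SuUR mutant glands and 2 gland IgG. Over all 496 Cdc45-file members, in IgG or not, the counts were 87, 83 and 119 in this order. Over all 24764 SUUR-file members the shares were 18.7%, 19.6% and 18.7%, so the SUUR-file shares over all sequence were not particular to the unshared peaks.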

How the data were processed

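The submitters' processing notes name BWA and the build dm3 (Release 5). Each library had its own peak call by MACS 2.0.10.20130419 (p limit 1e-03, genome size 1.2e+08, 1 tag kept per position), per the file headers. As deposited, the lists give positions (other columns were not used), the authors' pileup signal at the summit, the authors' −log10 p-value and the authors' fold ratio over the input.

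Peaks with a pileup of 5 or more were kept and overlapped by 1 bp or more with Python 3.11.15, pandas 2.3.3, numpy 2.4.6 and scipy 1.17.1; the overlap code was tested on simulated peaks. Local input was computed as (pileup + 1) / fold − 1, and the Poisson p recomputed from it differed from the deposited −log10 p by at most 3.49e-05. The members, amplicon windows and comparisons were chosen with earlier results of these data known. Named peaks are the 5 of highest pileup per class that overlap no IgG peak on placed sequence other than 2R and 2RHet, and named windows those of 100 kb on the same sequence with most shared peaks outside IgG or with most peaks of a list. Alternatives were other pileup limits, other overlap rules, equal numbers of peaks, equal pileup per 1000000 tags, and sequence left out. Peaks were not placed in genes and no sequence is printed, since the only gene table at hand was for Release 6.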

Additional observations from a re-analysis of the deposited data

How the results depend on the processing

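No paired analysis was possible because each antibody had 1 library. Of 70 alternative values, 39 lay within the interval or spread of the reported value and 31 did not, and none could be tested. All 16 median widths were among the 39. Their spread was the standard deviation of peak widths, a bound too wide to show that a median was stable. For shared Cdc45-file peaks the median width was 97 bp as reported, 61 bp with a pileup limit of 3 and 155 bp with a limit of 10. The 6 shares below are given in the order in which they apply: SUUR-file peaks shared (0.771%), Cdc45-file peaks shared (36.3%), shared SUUR-file peaks in IgG (64.4%), and the heterochromatic share of peaks of the SUUR-file list alone (14.8%), of shared SUUR-file peaks (3.67%) and of peaks of the Cdc45-file list alone (3.48%). With a pileup limit of 3, the shares of shared peaks were 2.55% and 19.2%, the IgG share 45.9%, and the heterochromatic shares of shared and Cdc45-file peaks 9.34% and 7.44%. With a limit of 10, the shares of shared peaks were 0.285% and 41.5% and no shared peak was heterochromatic (0%). With no limit on the partner, 3.58% of SUUR-file peaks were shared, of which 41.0% lay in IgG and 9.70% on heterochromatin. With the summit inside the other peak, 0.622% and 31.4% were shared. With peaks in IgG removed from both lists, so that the partner also lay outside IgG, 0.302% and 18.1% were shared and 16.8% of the SUUR-file class was heterochromatic. On the major arms alone, 1.17% and 23.3% were shared and 35.8% lay in IgG. With the 496 SUUR-file peaks of best p, 17.9% and 17.9% were shared, 97.8% of them in IgG, and the heterochromatic share of the SUUR-file class fell to 3.69%. At an equal pileup per 1000000 tags, 0% of Cdc45-file peaks were shared, because the limit then passes the ceiling of 72 and no SUUR-file peak is left. Chosen after seeing the data, leaving out the 6 amplicon windows gave 0.613% and 41.9% shared and 78.8% in IgG, with 1.48 Cdc45-file peaks per Mb of arm in place of 2.60 and 1.43 in place of 2.92 away from the centromere, and leaving out unplaced and mitochondrial sequence gave 24.2% of Cdc45-file peaks shared and 36.4% in IgG. The contrast in heterochromatin therefore rests on SUUR-file peaks of modest pileup, and the size of the overlap depends on the limit, IgG and the sequence counted. The cause of each change other than the equal pileup was not tested.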

Other observations

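The mitochondrial genome gave 14 Cdc45-file peaks, all unshared, with a median width of 97 bp and a median pileup of 10.5, and 13 of them overlapped an IgG peak. IgG had 26 peaks there with a median pileup of 53.5. The SUUR-file list had none, although its library was the deepest of the 3.

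IgG peaks that overlapped both ChIP lists numbered 115 of 5551, or 2.07%. Duplicate removal took 48.6% of SUUR-file tags, 49.6% of Cdc45-file tags and 43.3% of IgG tags. The local input lay at its floor for 77.3% of SUUR-file members, 33.1% of Cdc45-file members and 84.8% of IgG peaks. The Cdc45-file value holds after the pileup limit, and over that whole list, with no limit, 67.9% of peaks lay at the floor.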
